A study of Homo sapiens with 8 samples.

Results

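The genes described here are the very long protein-coding genes of the autosomes, those whose gene body spans at least 400 kb from annotated start to annotated end on GRCh37. The rule used gene body length, gene type, gene name and position, and no expression value. It was set with earlier results of these data known. It left out the collagen and laminin genes, a few other named genes and the genes that start in one segment of the long arm of chromosome 1. It found 478 genes in the annotation. Of these, 467 were among the 57773 genes with a row in the count files, and 424 passed the expression filter and were tested. The 43 that had a row but did not pass had at most 23 counts in any library, and 2 of them had 0 counts in all 8 libraries. A gene that is high in only one condition can pass the filter through that condition. Among those tested, 23 were under 10 counts in both knockdown libraries but not in both WT libraries, and 1 was the reverse.

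RNA-seq was carried out in H9, an established line of human embryonic stem cells (hESCs), with 2 libraries in each of 4 conditions. WT cells carried an HA tag on CHD7 and were untreated. CHD7 is a chromatin remodeling ATPase, and CHD7 -/- cells lacked both intact copies of its gene. HERVH knockdown cells were tagged WT cells collected 24 h after transfection with LNA-GapmeRs against HERVH, the transcript of a primate endogenous retrovirus that is abundant in hESCs. LNA-GapmeRs are short antisense oligonucleotides that direct RNase H to cut the RNA they pair with. HERVH element deleted cells lacked one HERVH copy on chromosome 2. The labels do not say whether the replicates of an edited condition were separate clones, or whether the replicates of any condition were separate cultures, so p-values measure the spread between these libraries. The knockdown cells had been dissociated and transfected, while WT cells were not transfected and how they were passaged for these libraries is not given. HERVH loss and the handling therefore cannot be told apart in that comparison.

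Libraries held 14802049 to 23156445 reads counted on genes, and 3 counts corresponded to 0.128 to 0.218 CPM (counts scaled to library size), a floor that covers counting error only. HERVH knockdown replicate 2 was the shallowest library, and its 10 most abundant genes took 8.87% of its counts, against 4.09% to 5.08% in the other 7. CHD7 was at 651 and 649.5 CPM in WT libraries and at 197.3 and 197.2 CPM in CHD7 knockout libraries, a log2 fold change of -1.72 (FDR = 2.25e-05, edgeR). Of 10 pluripotency markers, 0 passed an FDR of 0.05 in HERVH knockdown by edgeR, 0 did by DESeq2, and 2 had an unadjusted p below 0.05. POU5F1, the core pluripotency factor, was between 829 and 1474 CPM in all 8 libraries.

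Gene bodies of this length are almost entirely intron. RNA polymerase II needs hours to traverse such a gene, so the supply of mature transcript depends on sustained elongation and on splicing across very long introns. Many genes of this kind encode adhesion molecules, channels and synaptic scaffolds, and they are best known from neurons, although hESCs transcribe a large part of them at low level. Several lie at fragile sites, regions that break when replication is slowed.

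The gene bodies of the 478 genes ran from 400.5 kb to 2474 kb, with a median of 561 kb. Introns made up a median of 98.4% of the gene body, and the median of the longest intron was 146 kb. Their exons were AT-rich beside those of shorter genes, with a median GC content of 43.8% in the 424 genes tested against 48.7% in 13344 shorter autosomal protein-coding genes tested. In WT cells their levels per exon length had a median of 1.37 RPKM and reached 56.2 RPKM for SND1, which encodes a nuclease that binds RNA. FRAS1, an extracellular matrix protein of the basement membrane, was at 33.1 RPKM, and ROBO1, the receptor for the repulsive guidance cue SLIT, at 26.0 RPKM. All very long genes together took 1.84% to 2.05% of the counts in the WT, CHD7 knockout and HERVH element deleted libraries, and 1.82% and 1.42% in the HERVH knockdown libraries. In bulk libraries such as these, fewer cells of a type and less RNA per cell cannot be told apart.

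The 3 LNA-GapmeRs that target HERVH are shown because a perfect match to them in an intron of a very long gene would expose that pre-mRNA to the same agent. They are written in full in lower case, 5′ to 3′, with no base singled out.
SHHERVH_3: ggaagatttgggacga
SHHERVH_4: attgggacctagctcg
SHHERVH_12: atgtggagtgggtagc

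Promoter windows of 4 very long genes are shown because these genes moved in HERVH knockdown while their starts differ in base composition. SEMA5A, KCNQ5 and CTNND2 fell and CREB5 rose. Each window covers 250 bases before and 50 after the RefSeq start on GRCh38.p14, read along the gene's strand. Capitals mark GGGCGG, the GC box, or its reverse complement CCGCCC.
SEMA5A, chr5:9546026-9546325, minus strand: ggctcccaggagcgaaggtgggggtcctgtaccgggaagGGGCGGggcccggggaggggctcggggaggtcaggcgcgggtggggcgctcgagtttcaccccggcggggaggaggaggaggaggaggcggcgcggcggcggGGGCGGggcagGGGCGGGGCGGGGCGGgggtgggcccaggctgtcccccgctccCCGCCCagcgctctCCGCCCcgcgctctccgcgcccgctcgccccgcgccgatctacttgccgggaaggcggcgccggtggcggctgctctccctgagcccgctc
KCNQ5, chr6:72621814-72622113, plus strand: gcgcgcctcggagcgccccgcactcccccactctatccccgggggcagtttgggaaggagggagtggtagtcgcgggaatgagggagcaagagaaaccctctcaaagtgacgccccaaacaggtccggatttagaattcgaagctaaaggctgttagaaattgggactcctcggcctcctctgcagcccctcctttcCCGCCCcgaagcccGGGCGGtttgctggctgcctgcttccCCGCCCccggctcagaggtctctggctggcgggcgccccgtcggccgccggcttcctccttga
CTNND2, chr5:11904397-11904696, minus strand: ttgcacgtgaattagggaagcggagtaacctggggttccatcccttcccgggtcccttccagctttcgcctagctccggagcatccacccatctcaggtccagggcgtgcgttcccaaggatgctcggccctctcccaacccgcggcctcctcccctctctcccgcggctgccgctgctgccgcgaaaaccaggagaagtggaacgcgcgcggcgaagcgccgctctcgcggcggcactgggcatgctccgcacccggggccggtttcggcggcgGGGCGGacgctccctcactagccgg
CREB5, chr7:28412268-28412567, plus strand: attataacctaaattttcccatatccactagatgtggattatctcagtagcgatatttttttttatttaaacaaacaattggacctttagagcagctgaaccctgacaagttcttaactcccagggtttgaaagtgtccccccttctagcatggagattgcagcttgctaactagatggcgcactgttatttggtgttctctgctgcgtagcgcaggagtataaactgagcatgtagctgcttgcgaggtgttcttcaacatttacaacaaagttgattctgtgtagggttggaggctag
GC content was 81.0% in the SEMA5A window, 65.7% in that of KCNQ5 and 69.3% in that of CTNND2, against 41.7% in that of CREB5. The GC box occurred 7 times, 3 times and 1 time in the first 3 windows and 0 times in the last. Other leading genes that fell were mixed. The windows of DPP10 (46.0% GC), MAPK10 (53.3%), DPP6, LTBP1 and PPFIA2 held 0 GC boxes. Those of PCCA, ST6GALNAC3 and THSD7B held 2, 3 and 1. The 4 windows shown therefore do not stand for genes that fell or rose. RefSeq windows were matched for 384 of the 478 genes and 349 of the 424 tested. The windows of the genes tested had a median GC content of 65.0% and a median of 23 CpG dinucleotides, against 58.3% and 14 in all 27305 windows. Of these windows of very long genes, 57.3% held the GC box on either strand, 7.16% held TATAAA and 31.8% held CCAAT, against 44.6%, 12.0% and 35.7% of all windows. In the 33 windows of genes that fell in HERVH knockdown the shares were 45.5%, 3.03% and 42.4%. A match of letters is a description and not a site of binding.

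In HERVH knockdown cells, 41 of the 424 very long genes fell and 2 rose against WT at an FDR below 0.05 (edgeR's quasi-likelihood test, Benjamini-Hochberg over all 23474 genes tested). That was 9.67% lower and 0.472% higher, while of all genes tested 1.53% fell and 0.618% rose. At the study's thresholds for a DEG, FDR under 0.01 with a 2-fold change or more, 3 very long genes fell, among them SYN3 and SEMA5A, 0.708% of those tested against 0.136% of all genes. The median log2 fold change of the very long genes was -0.38 and 335 of 424 values were negative, whereas the median over all genes tested was 0.04. Both knockdown values lay below both WT values in 56.4% of the very long genes and above them in 8.02%, against 22.3% and 22.5% of all genes tested. The medians were -0.30 in knockdown replicate 1 and -0.48 in replicate 2 relative to the WT mean, and lay between -0.07 and 0.09 in the other 6 libraries. The direction was thus shared by both knockdown libraries, but the number of calls was not stable. A fit of the 4 WT and knockdown libraries alone called 2 very long genes lower, and without WT replicate 1 edgeR called 0 (105 at an unadjusted p below 0.05). All 41 genes kept a negative log2 fold change in each of those fits. They were chosen as lower from the same libraries, so this is no separate support.

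**Figure D1:**
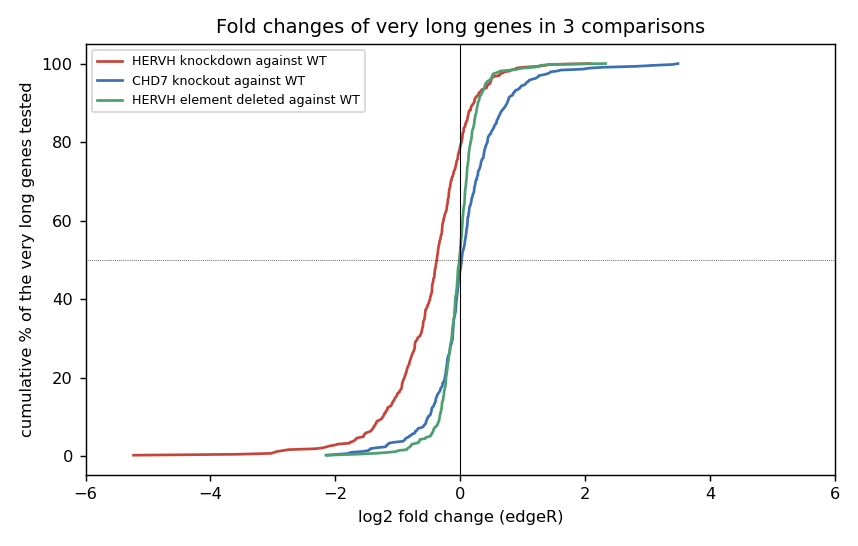
Cumulative share (%) of the 424 very long genes tested against their log2 fold change (edgeR), with one line for each of the 3 conditions compared with WT. The HERVH knockdown line reaches 50% at -0.38, while the CHD7 knockout and HERVH element deleted lines reach it at 0.02 and -0.02.

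The genes with the smallest p in HERVH knockdown included synaptic genes. Such genes were picked by p in these same libraries, so separation of their knockdown and WT values is no separate support. SYN3, a synapsin that coats synaptic vesicles, occupies 551 kb of chromosome 22 (32903807 to 33454367, minus strand). It was at 42.5 and 32.6 CPM in WT, 41.3 and 47.2 in CHD7 knockout, 33.0 and 30.2 in HERVH element deleted and 10.1 and 13.5 CPM in HERVH knockdown libraries. Only the knockdown libraries stood apart (log2 fold change -1.67, SE 0.21, FDR = 0.00453, edgeR).

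SEMA5A, a semaphorin that guides axons, spans 511 kb of chromosome 5 (9035145 to 9546187, minus strand). It was at 65.0 and 58.5 CPM in WT and between 57.7 and 61.1 in the 4 libraries of CHD7 knockout and HERVH element deleted cells. In HERVH knockdown it was at 24.1 and 30.9 CPM (log2 fold change -1.17, SE 0.17, FDR = 0.00773, edgeR).

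Channel genes fell too. DPP6 and DPP10 encode auxiliary subunits of voltage-gated potassium channels of the A type and span 1241 kb and 1403 kb. DPP6 was at 23.7 and 21.3 CPM in WT and 7.28 and 10.6 CPM in HERVH knockdown libraries (log2 fold change -1.34, SE 0.22). DPP10 was at 14.7 and 13.0 CPM in WT and 5.04 and 6.34 CPM in HERVH knockdown libraries (log2 fold change -1.29, SE 0.24). KCNQ5, a potassium channel subunit of the M current, was lower in level and had the largest fall of the 15, from 4.06 and 3.37 CPM in WT to 0.712 and 1.17 CPM (log2 fold change -2.01, SE 0.39, FDR = 0.0213, edgeR). For these 3 genes neither CHD7 knockout nor HERVH element deleted cells passed the test.

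Genes outside the synapse fell as well. PCCA, a subunit of the mitochondrial propionyl-CoA carboxylase, was at 76.6 and 61.9 CPM in WT and 36.7 and 38.7 CPM in HERVH knockdown libraries (log2 fold change -0.88, SE 0.17). LTBP1, which holds latent TGF-β in the extracellular matrix, was at 68.5 and 63.4 CPM in WT and 28.5 and 39.9 CPM in knockdown libraries (log2 fold change -0.95, SE 0.18). ST6GALNAC3, a sialyltransferase, was at 36.9 and 36.5 CPM in WT and 19.7 and 19.9 CPM in knockdown libraries (log2 fold change -0.89, SE 0.18). In each of these the groups did not overlap and the edgeR FDR lay between 0.0204 and 0.0233. Other genes of the 15 that fell were CTNND2 (δ-catenin of adhesive junctions, log2 fold change -1.01), MAPK10 (a JNK kinase, -1.67), THSD7B (-1.44), SAMD12 (-1.22) and PPFIA2 (a liprin scaffold of the presynaptic active zone, -1.41). Exons of other counted genes cover 20.5% of the exon bases of PPFIA2, so its counts are less certain.

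CREB5, a transcription factor that binds cAMP response elements, went the other way. It was at 3.69 and 1.59 CPM in WT, 5.96 and 3.66 in CHD7 knockout, 2.44 and 1.83 in HERVH element deleted and 13.9 and 8.30 CPM in HERVH knockdown libraries. The knockdown values were above all others (log2 fold change 2.07, SE 0.41, FDR = 0.0231, edgeR). RYR2, the calcium release channel of the sarcoplasmic reticulum and the only other very long gene that rose, was at 34.4 and 35.6 CPM in WT and 75.4 and 54.0 CPM in HERVH knockdown libraries (log2 fold change 0.89, FDR = 0.0486, edgeR). RYR2 was picked out after its values were seen.

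**Figure D2:**
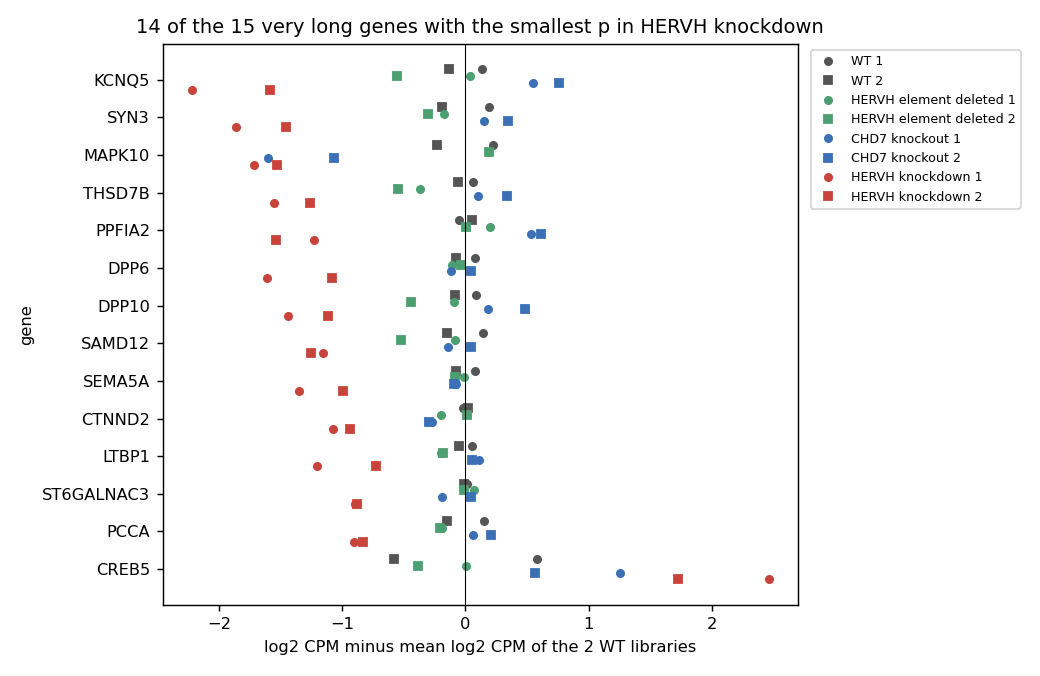
Log2 CPM of each library minus the mean log2 CPM of the 2 WT libraries (horizontal axis) for 14 of the 15 very long genes with the smallest p in HERVH knockdown (vertical axis), with circles for replicate 1 and squares for replicate 2. Both HERVH knockdown points lie left of both WT points in 13 genes and right of them in CREB5, and MAPK10 is also low in CHD7 knockout. The genes were picked by their p in these same libraries, so this separation is no separate support. Of all genes tested, 22.3% lay below and 22.5% above in this way.

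The median change was smaller in abundant very long genes. MACF1 and DST encode giant linkers of actin and microtubules. MACF1 was between 982 and 1165 CPM in all 8 libraries (log2 fold change in HERVH knockdown -0.09, SE 0.13). DST was at 776 and 767 CPM in WT and 825 and 706 CPM in knockdown libraries (log2 fold change -0.01, SE 0.15). VPS13B, a lipid transfer protein at the Golgi, and TMEM132B had log2 fold changes of -0.01 and -0.01 (SE 0.19 and 0.15). VPS13B was at 94.9 and 96.0 CPM in WT and 116 and 74.1 CPM in knockdown libraries, and TMEM132B at 191 and 189 CPM in WT and 211 and 166 CPM in knockdown libraries. In DST, VPS13B and TMEM132B the knockdown replicates thus lay on opposite sides of WT, and the small fold changes are averages of these. These 3 genes were named for having the smallest changes above a mean log2 CPM of 5. Their values therefore do not show how abundant genes moved. Of the abundant genes ROBO1 was called, at 318 and 256 CPM in WT and 194 and 140 CPM in knockdown libraries (log2 fold change -0.78, FDR = 0.0366, edgeR). FRAS1, SND1, SIPA1L1 and ITPR2 had values between -0.25 and 0.17 and did not pass. Across levels, the median log2 fold change was -0.25 in 128 very long genes at a mean log2 CPM of 5 and more, -0.45 in 130 at 3 to 5, -0.51 in 92 at 1 to 3 and -0.58 in 74 below 1. The shares called lower were 7.03%, 14.6%, 13.0% and 1.35% in the same order.

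Gene length was graded with the fold change over autosomal protein-coding genes as a whole. The median log2 fold change in HERVH knockdown was 0.13 in 5597 genes under 25 kb, 0.02 at 25 to 50 kb, -0.08 at 50 to 100 kb, -0.14 at 100 to 200 kb, -0.21 in 802 genes at 200 to 400 kb and -0.38 in the very long genes. The share that fell went from 0.804% under 25 kb to 5.86% at 200 to 400 kb and 9.67% at 400 kb and more. From 25 kb upward the medians fell with length in both knockdown replicates. In CHD7 knockout and HERVH element deleted cells the class medians stayed between -0.08 and 0.02. Within the very long genes the median was -0.30 in 246 genes of 400 to 600 kb, -0.45 in 119 of 600 kb to 1 Mb and -0.42 in 59 of 1 Mb and more. Spearman's rho between gene body length and log2 fold change was -0.29 over 13768 autosomal protein-coding genes and -0.16 over the 424 very long genes. Over the 13768 genes it was -0.04 in knockdown replicate 1 and -0.40 in replicate 2, so this unadjusted rank relation came mainly from replicate 2. With exonic GC, exon length and level in a least-squares fit, both replicates were graded. The slope per 10-fold of gene body length was then -0.15 in replicate 1 and -0.25 in replicate 2. These are descriptions across genes, which share their libraries and are not independent replicates.

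**Figure D3:**
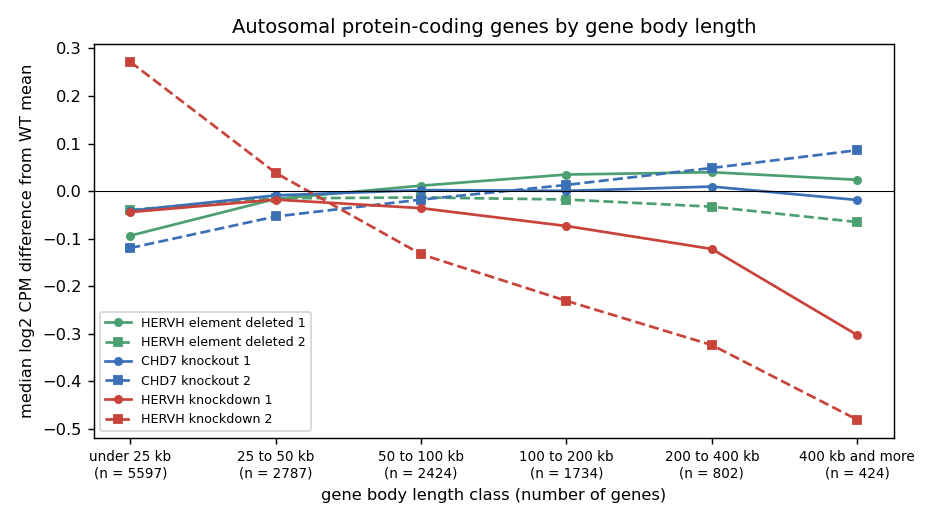
Median log2 CPM difference from the WT mean (vertical axis) by gene body length class (horizontal axis, with the number of genes), with one line per library. The HERVH knockdown lines end at -0.30 and -0.48 at 400 kb and more, while the other 4 lines end between -0.07 and 0.09.

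The neighbours of the 400 kb limit were mixed. Just inside it, BMPR1B (400.5 kb), KCNB2 (401 kb) and TRPS1 (401 kb) had log2 fold changes of 0.29, 0.13 and -0.55. Just outside it, NTRK3 (397 kb), LDB2 (397 kb) and DTNA (399 kb) had -1.30, -0.96 and 0.48. Annotated bodies can exceed the transcript in use, and in 97 of the 478 genes the canonical transcript spans less than 400 kb. Of the 341 genes tested whose canonical transcript does span 400 kb, 36 fell and the median was -0.38. Of the other 83, 5 fell and the median was -0.33. Among these, 0 of the 23 whose canonical transcript spans under 200 kb fell, and their median was -0.20.

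GC content did not grade the fold change in the same way in both knockdown replicates. Autosomal protein-coding genes were split into 5 equal classes of exonic GC, from class 1, the lowest, to class 5. The median log2 difference from WT in replicate 1 went from 0.03 in class 1 to -0.22 in class 5. In replicate 2 it went from -0.34 to 0.48. Within each GC class the very long genes nevertheless had the lowest median of the 6 length classes in replicate 1, between -0.27 and -0.49. The same held in replicate 2, with medians from -0.70 to -0.20, except in class 5, which held 11 very long genes with a median of 0.20. Among the very long genes themselves the medians over both replicates were -0.43, -0.36 and -0.36 in 3 equal classes of rising exonic GC. These pooled values join opposite grades, with -0.28, -0.28 and -0.40 in replicate 1 and -0.65, -0.51 and -0.30 in replicate 2. The 41 genes that fell had a median exonic GC of 44.8% and a median gene body of 623 kb, against 43.8% and 555 kb in the 381 genes tested that were not called.

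**Figure D4:**
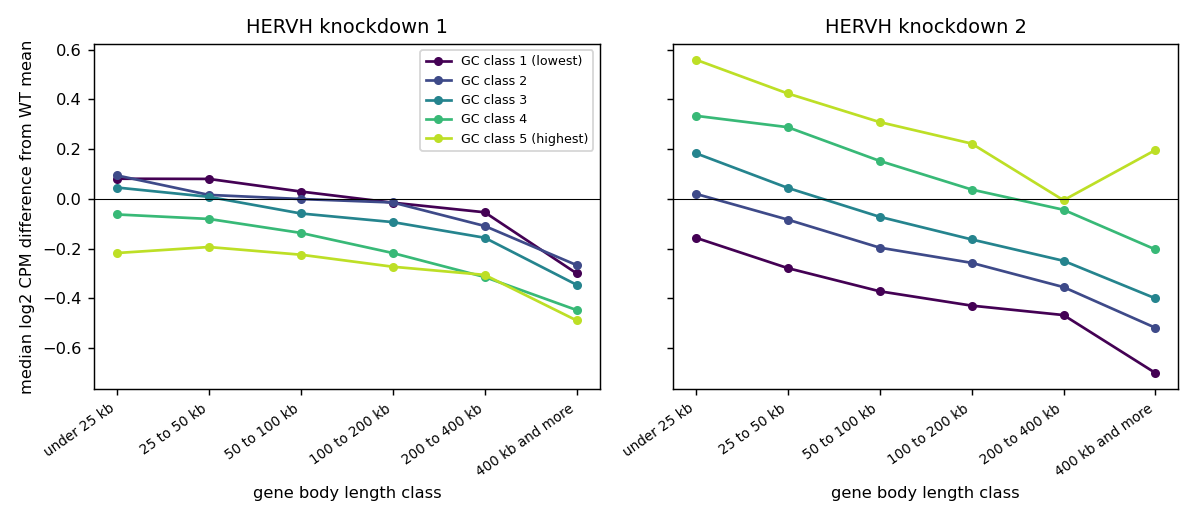
Median log2 CPM difference from the WT mean in each HERVH knockdown library (vertical axis) by gene body length class (horizontal axis), with one line per class of exonic GC from 1 (lowest) to 5 (highest). The GC classes lie in opposite order in replicates 1 and 2, and very long genes have the lowest median on each line but that of class 5 in replicate 2, which rests on 11 genes.

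A least-squares fit over the 13768 genes with gene body length, exonic GC, exon length and level gave a slope of -0.21 log2 units per 10-fold of gene body length. It was -0.15 in knockdown replicate 1 and -0.25 in replicate 2, against 0.02 in CHD7 knockout and 0.01 in HERVH element deleted cells. The slope per 10 points of GC was 0.08, with -0.15 in replicate 1 and 0.28 in replicate 2. The 4 measures together took up 9.32% of the variance of the fold change, length alone 5.58% and GC alone 3.24%. In knockdown replicate 1 these shares were 7.37%, 0.0945% and 3.05%, and in replicate 2 they were 26.9%, 14.1% and 21.7%. When a line was fitted to the 13344 shorter genes and extended to the very long ones, length alone gave a median of -0.32 and GC alone gave -0.10, beside the observed -0.38. The replicates differed in this. Length alone gave -0.12 in replicate 1, where the observed median was -0.30 and 63.7% of the very long genes lay below the line, and -0.48 in replicate 2, equal to the observed -0.48. With all 4 measures the line gave -0.35, and 53.3% of the very long genes lay below it. Most of the variance between genes was outside these measures in both replicates.

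By function, the counts below are read beside the 9.67% of all very long genes tested and the 1.53% of all genes tested that fell. The largest median change was in neuronal adhesion and axon guidance, where 10 of 55 genes tested fell and 0 rose (29 and 0 at an unadjusted p below 0.05, and 20 and 0 by DESeq2), with a median of -0.73. Besides SEMA5A, ROBO1 and THSD7B these included OPCML, CADM2 and SDK1, which are adhesion proteins of the immunoglobulin family, and ASTN2, DLGAP1 and SORCS1. Cadherins, catenins and junction scaffolds had 5 of 29 lower and a median of -0.45, with CTNND2, CTNNA2, MAGI2, SPOCK1 and PCDH7. Ion channels, transporters and receptors, a list that also holds proteins of synaptic vesicles, had 7 of 58 lower, 1 higher and a median of -0.38. Signaling enzymes had 6 of 60 lower and a median of -0.40. At an FDR below 0.05, the channel list, at 12.1% lower, and the signaling list lay near the share of the very long genes as a whole. Transcription, chromatin and RNA binding factors had 6 of 47 lower, 1 higher and a median of -0.26. Cytoskeleton, motors and trafficking had 0 of 44 called by edgeR, 7 lower by DESeq2 and 16 lower at an unadjusted p below 0.05, with a median of -0.36. Metabolic and other enzymes with the fragile-site genes had 2 of 36 lower and a median of -0.15. The 95 genes in no list had 5 lower and a median of -0.34. At an unadjusted p below 0.05 (edgeR), 161 of the 424 very long genes were lower. By that measure the signaling list, with 31 of 60, was close to the adhesion list, with 29 of 55. The cadherin, channel, transcription and metabolic lists had 13 of 29, 23 of 58, 10 of 47 and 7 of 36.

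Adhesion genes were also the longest list, with a median gene body of 896 kb. Their median difference from the line of length, GC, exon length and level was -0.38, against 0.22 for metabolic enzymes (567 kb) and between -0.16 and 0.05 for the other groups. Shorter genes of the adhesion list, 20 with a median body of 292 kb, had a median of -0.57, beside -0.21 over all genes of 200 to 400 kb. They were also lower in level, with a median of the mean log2 CPM of 2.72 against 4.59. Shorter genes of the ion channel list, 47 with a median body of 221 kb, had a median of -0.44, and 34 of the cadherin list (189 kb) had -0.30. Shorter genes of the metabolic list, 142 with a median body of 175 kb, had a median of -0.18. In both knockdown replicates the adhesion list stood at -0.69 and -0.64, and the metabolic list at -0.24 and -0.07. Neural markers differed among themselves in HERVH knockdown. Over 13 markers the summed level was 94.5 and 94.9 CPM in WT, 69.8 and 77.2 in HERVH knockdown, 79.3 and 72.9 in CHD7 knockout and 102 and 100.4 CPM in HERVH element deleted libraries. MAP2 was at 39.8 and 46.9 CPM in WT and 17.3 and 17.3 CPM in HERVH knockdown libraries. Without it the other 12 summed to 54.7 and 48.0 CPM in WT and 52.5 and 59.9 CPM in knockdown libraries. The sum without MAP2 joined opposite changes, with log2 fold changes of -2.35 for STMN2 and 1.65 for TUBB3 (FDR = 0.00605 and 0.0366, edgeR). MAP2 also fell (log2 fold change -1.32, FDR = 0.00603, edgeR). Of the 10 neural markers tested, 7 had a negative log2 fold change and 6 had an unadjusted p below 0.05. At an FDR below 0.05, edgeR called 2 lower and 1 higher, and DESeq2 called 3. SOX1, NEUROD1 and NEUROG2, which define neural progenitors and neurons, had at most 12 counts in any library. The 9 mesoderm and endoderm markers summed to 4.53 and 7.39 CPM in WT and 14.3 and 14.1 CPM in HERVH knockdown libraries. These sums rested mainly on FOXA2, at 1.39 and 4.96 CPM in WT and 10.3 and 9.69 CPM in knockdown libraries. AFP was at 0.554 and 0.655 CPM in WT and 1.81 and 2.11 CPM in knockdown libraries, and MIXL1 had a log2 fold change of -0.005. By edgeR 0 of the 4 tested passed an FDR of 0.05, 1 did by DESeq2, and 2 had an unadjusted p below 0.05. The part of other cell types' gene expression in the adhesion result was not tested.

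**Figure D5:**
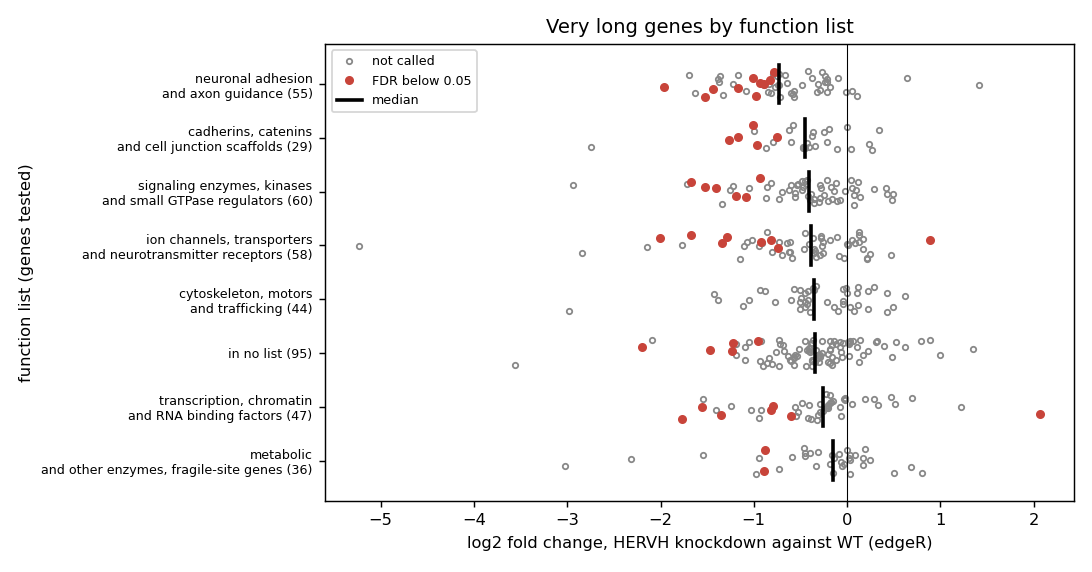
Log2 fold change in HERVH knockdown against WT (edgeR, horizontal axis) of the 424 very long genes by function list (vertical axis, with the number tested), with filled points for an FDR below 0.05 and a bar for the median. Medians run from -0.73 in neuronal adhesion and axon guidance to -0.15 in metabolic and other enzymes.

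Perfect matches to the HERVH GapmeRs were rare in very long genes. On the transcribed strand, 4 of the 424 genes tested held one, all in introns, and 1 of the 41 that fell did. That gene was FTO, an RNA demethylase, with the SHHERVH_12 site at chr16:53779257-53779272 (GRCh37, plus strand). FTO was at 91.5 and 78.0 CPM in WT, 51.2 and 48.2 in CHD7 knockout, 80.8 and 70.9 in HERVH element deleted and 45.7 and 52.1 CPM in HERVH knockdown libraries. It thus had log2 fold changes of -0.79 in HERVH knockdown and -0.77 in CHD7 knockout, both against the same WT libraries. LSAMP, a neuronal adhesion protein, held sites of SHHERVH_12 and SHHERVH_3 and had a log2 fold change of -1.08 (FDR = 0.0514, edgeR). CSMD1 and TRDN, both under 3 CPM, held the others. They had log2 fold changes of -1.63 and -2.32 and did not pass (FDR = 0.147 and 0.148, edgeR). The median over the 4 genes with a perfect match was -1.35, against -0.37 in those without. Of the shorter autosomal protein-coding genes tested, 0.120% held one, against 0.943% here, and the median of those 16 was 0.20. Per Mb of gene body, shorter genes held 0.031 sites and very long genes 0.017. Allowing up to 2 mismatches, 24.3% of the very long genes tested and 17 of the 41 that fell held a site for a HERVH GapmeR. For the study's control GapmeR, with which none of these libraries is labelled, these were 21.9% and 7 of 41. The part of such sites in the result was not tested.

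In CHD7 knockout cells 10 very long genes fell and 11 rose, 2.36% and 2.59% of those tested, beside 0.613% and 1.19% of all genes, and the median log2 fold change was 0.02. These counts were not stable when single libraries were left out, also libraries of other conditions, and the cause was not tested. The median then ran from -0.021 to 0.12. PDE4B, a cAMP phosphodiesterase, was at 2.08 and 2.48 CPM in WT and 26.7 and 24.4 CPM in CHD7 knockout libraries (log2 fold change 3.48, SE 0.32, FDR = 5.2e-05, edgeR), and between 1.89 and 4.00 CPM in the other 4. EBF1, a transcription factor of B cell and neuronal differentiation, was at 0.185 and 0.421 CPM in WT and 4.11 and 2.37 CPM in CHD7 knockout libraries (log2 fold change 3.40, SE 0.59). Its WT values were near the floor, as 3 counts were 0.139 and 0.140 CPM there, so the size of this change is uncertain. EBF1 did not pass the filter in the WT and knockdown libraries alone, and was tested through its level in other conditions. PCDH7, a protocadherin, was at 18.9 and 22.3 CPM in WT, 4.99 and 5.70 CPM in CHD7 knockout and 6.08 and 11.1 CPM in HERVH knockdown libraries. It fell in both, with log2 fold changes of -1.95 and -1.27 against the same WT libraries.

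Some very long genes moved one way in CHD7 knockout and the other way in HERVH knockdown, and those named here were picked after their values were seen. NFIA, a factor of glial differentiation, was at 5.03 and 4.26 CPM in WT, 10.8 and 14.2 in CHD7 knockout and 1.81 and 1.82 CPM in HERVH knockdown libraries. HDAC9, a histone deacetylase, was at 21.9 and 20.3 CPM in WT, 36.2 and 37.9 in CHD7 knockout and 11.2 and 13.0 CPM in HERVH knockdown libraries. NFIA had an FDR of 0.0163 in CHD7 knockout and 0.0380 in HERVH knockdown, and HDAC9 of 0.0453 and 0.0486 (edgeR). The values of neither gene overlapped between these 3 conditions, but both were picked with these values in view, so this is no separate support. Compared directly, 100 very long genes were lower and 5 higher in HERVH knockdown than in CHD7 knockout cells, 23.6% and 1.18% beside 5.65% and 3.8% of all genes tested (edgeR). The median difference was -0.37. The 5 that were higher were RYR2, CACNA2D1, FBN2, LDLRAD4 and NEBL.

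In HERVH element deleted cells 0 very long genes passed in either direction by edgeR and 0 by DESeq2, with 3 lower and 2 higher at an unadjusted p below 0.05. Of all genes tested 0.0724% fell and 0% rose. The median log2 fold change was -0.02, and its middle 50% of values lay between -0.18 and 0.12. Compared directly, 25 very long genes were lower and 1, CREB5, was higher in HERVH knockdown than in HERVH element deleted cells, 5.9% and 0.236% beside 0.686% and 0.648% of all genes tested (edgeR). The median difference was -0.38. Without HERVH element deleted replicate 1 edgeR called 0 of them lower (82 at an unadjusted p below 0.05), and without replicate 2 it called 2. The comparisons with WT, CHD7 knockout and HERVH element deleted cells share the same knockdown libraries, so they are not independent of each other.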

How the data were processed

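Read counts from 8 RNA-seq libraries were used. Per the labels and the study's methods, the authors made rRNA-depleted, strand-specific libraries, mapped reads to hg19 with STAR and deposited whole-number HTSeq counts per Ensembl gene, without normalization. Tool versions and the strand setting are not given in the sources used here, so reads of antisense partners may be shared. Lengths, GC and positions came from GENCODE release 44 on GRCh37, which placed 96.1% of the counted genes. Its gene models are newer than those counted.

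Counts were scaled by TMM, filtered by filterByExpr and tested with edgeR 4.0.16 (quasi-likelihood test, R 4.3.3) in one fit of all 8 libraries with 4 residual degrees of freedom. SYN3 and the other leading genes are the 15 with the smallest p in HERVH knockdown. The most abundant gene of each function list, the 3 largest changes in CHD7 knockout and the 3 smallest changes above a mean log2 CPM of 5 in HERVH knockdown were also named. A few genes named by this rule are left out of the text. Log2 CPM used a prior count of 2. GapmeR matches were searched on the transcribed strand. The genes and function lists were chosen with earlier results of these data known. The procedure was tested on simulated data.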

Additional observations from a re-analysis of the deposited data

How the results depend on the processing

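The fall of the very long genes in HERVH knockdown kept its direction under every alternative but 1. The median log2 fold change lay between -0.40 and -0.33 under RLE scaling, DESeq2, the other filters, a fit of the 4 WT and knockdown libraries, the replicate block and the GC correction. A correction for GC and length brought it to 0.060 and the difference from all protein-coding genes tested to 0.0067 (-0.37 before), which follows from its construction, and VPS13B then rose by 0.49. The slope on GC was -0.15 in knockdown replicate 1, against 0.08 in both and 0.28 in replicate 2.

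Counts of calls were less stable, and the cause was not tested. Counts are given as lower and higher. For HERVH knockdown against WT (41 and 2) they were 85 and 3 by DESeq2, 84 and 3 without a filter, 2 and 0 in the 4 libraries (121 and 6 at an unadjusted p below 0.05), 93 and 7 with GC correction, 85 and 4 with GC correction and replicate block, and 19 and 36 with GC and length correction. For CHD7 knockout (10 and 11) they were 13 and 18, 13 and 20, 20 and 24, 18 and 23, and 25 and 22 by DESeq2, without a filter, with GC correction, with GC correction and block, and with GC and length correction, the last with a median of -0.094. For HERVH knockdown against HERVH element deleted (25 and 1) they were 68 and 3, 67 and 4, 70 and 2, 63 and 2, and 16 and 16 in that order. For HERVH knockdown against CHD7 knockout (100 and 5) they were 119 and 9, 126 and 7, 122 and 16, 115 and 15, and 49 and 83. HERVH element deleted against WT stayed at 0 and 0 throughout.

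Leaving out 1 library leaves 1 in its group, which is then assumed to vary like the others. In HERVH knockdown against WT the counts ran from 0 without WT replicate 1 to 152 without knockdown replicate 1 for lower, and from 0 to 8 for higher. They were 8 lower without WT replicate 2, 79 without knockdown replicate 2, 19 and 20 without CHD7 knockout replicates 1 and 2, and 24 and 27 without HERVH element deleted replicates 1 and 2. The median ran from -0.56 to -0.34, and the difference from all protein-coding genes from -0.51 to -0.26. In CHD7 knockout they ran from 2 to 24 lower and 1 to 31 higher, highest without a knockdown library, with medians from -0.021 to 0.12. In HERVH element deleted cells medians ran from -0.071 to 0.053. In HERVH knockdown against HERVH element deleted they ran from 0 to 157 lower and 0 to 6 higher, and against CHD7 knockout from 35 to 170 lower and 1 to 16 higher.

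The replicate block gave 50 lower and 2 higher in HERVH knockdown and held all 41 of the genes above. The labels do not say that a replicate number marks a shared batch. Deviations of same-numbered libraries correlated at 0.35 for WT and HERVH knockdown and at -0.28 for WT and CHD7 knockout, so the numbers were not taken as pairs. Chosen after seeing the data, the restriction to canonical transcripts of 400 kb gave 36 lower and that to at most 10% shared exon bases gave 38.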
